A study of Mus musculus with 2 samples.

Results

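Cck encodes cholecystokinin, a peptide hormone and neuropeptide, and its messenger RNA was followed here through limb muscle tissue of mouse embryos. The gene is 1 of 32285 genes in the count matrices of both libraries and was found by its symbol. It was chosen by its UMI counts in these data, high in the muscle cells of the older embryos, so its level by age and by cell class is given as a description without a test. The study made 1 single-cell library from limb skeletal muscles of embryos at stage E12.5 and 1 from embryos at E15.5 (embryonic days), both from C57Bl/6 embryos of WT genotype, with forelimbs and hindlimbs in the same library. Cells were freed with trypsin and captured in droplets, and the 2 groups differ in age alone as far as the labels say. How many embryos were pooled, and of which sex, was not given in the sources used here. With 1 library per age there are no biological replicates, and every interval below is a 95% interval that covers counting error only.

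Cholecystokinin is best known from the I cells of the small intestine, which release it after a meal, and from neurons of the brain. The gene is translated into a precursor that must be cut and modified before it can signal: prohormone convertases cut it, carboxypeptidase E trims the ends, tyrosyl sulphotransferases add sulphate, and peptidylglycine amidating monooxygenase (Pam) amidates the carboxyl end. The mature peptides, and the related hormone gastrin, act through the receptors Cckar and Cckbr. Limb muscle forms from progenitors that carry the transcription factor Pax7, pass through a Myod1-positive committed state, switch on Myog as they leave the cell cycle, and fuse into multinucleate fibres. The earlier age falls in the period of primary fibre formation and the later in that of secondary, foetal, fibre formation.

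In mouse genome build GRCm38 the gene (ENSMUSG00000032532) lies on the minus strand at chr9:121489824-121495694. The GENCODE annotation gives it 6 transcripts, and the transcript Cck-201 has 3 exons. It overlaps 0 other annotated genes, so its reads cannot be shared with an overlapping or antisense gene model. Its neighbours are Trak1, 14905 bases away, and the unnamed model Gm47095, 19970 bases away. The promoter is shown because Cck went with muscle identity in the counts below, and the muscle regulators Myod1, Myf5 and Myog bind the E-box, CANNTG. The 250 bases upstream of the start of the gene (RefSeq, GRCm38.p6, chr9:121495695-121495944, minus strand) are printed 5′ to 3′ with each E-box and the CGTCA core of the cyclic AMP response element in capitals.

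Cck promoter: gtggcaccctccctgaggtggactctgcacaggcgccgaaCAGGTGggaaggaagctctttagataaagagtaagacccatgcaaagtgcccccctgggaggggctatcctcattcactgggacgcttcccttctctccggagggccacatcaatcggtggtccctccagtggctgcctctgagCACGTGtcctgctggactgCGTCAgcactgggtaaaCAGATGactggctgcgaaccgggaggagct

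On both strands the window held 3 E-boxes and 1 CGTCA, and none of these matches overlapped another. The E-box CAGGTG began 210 bases before the start of the gene, CACGTG 66 and CAGATG 30, and the CGTCA began at 47. An E-box of some kind is common: 66.2% of 32851 mouse promoter windows of this kind held at least 1, and 12.2% held at least 3. The CACGTG form was in 6.02% of them, CAGATG in 14.4%, CAGGTG in 17.2% and CGTCA in 17.8%. The E-box form CAGCTG was also searched for and had 0 matches in the Cck window. The full element TGACGTCA, found in 1.55% of the windows, was not among these letters. A match is a stretch of letters and says nothing of whether a factor bound there in these cells.

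A UMI stands for 1 captured RNA molecule, and 34907675 of them in 12941 barcodes were deposited for E12.5 and 46966083 in 5780 barcodes for E15.5. After filtering, 11001 and 3917 cells remained, with a median of 2323 and 9340 UMIs per cell, so the older library was the deeper one per cell. Only 17 barcodes were shared by the libraries, 2 of them borne by younger and 1 by older muscle cells. Cells were clustered in each library without Cck and without 12 myogenic genes, and clusters were named by marker genes. All 15 muscle markers were detected in the muscle-lineage-like class at both ages, among them Pax7 at 115 CPM (the gene's UMIs scaled to 1000000 UMIs of the class) at each age and Myog at 447 CPM at E12.5 and 561 CPM at E15.5. In the remaining cells at E15.5 Pax7 stood at 0.9498 CPM and Myog at 6.79 CPM.

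Cck was nearly absent from the younger limb and concentrated in muscle cells of the older one. Over all deposited barcodes, before any filter, it had 10 UMIs at E12.5 and 835 UMIs at E15.5. In the muscle-lineage-like class the younger library had 6 UMIs in 611 cells, or 2.37 CPM (0.869 to 5.15), and the older one 638 UMIs in 398 cells, or 104 CPM (96.3 to 113). The log2 ratio of the levels, E15.5 over E12.5, was 5.46 (4.33 to 6.91). The muscle class held 83.3% of all Cck UMIs of the kept cells at E15.5.

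The share of cells with at least 1 Cck UMI showed the same order. At E15.5 182 of 398 muscle cells had one (45.7%, 40.8 to 50.8), while 6 of 611 (0.982%) did in the younger library. Median depth in these cells was 14272 and 3755 UMIs, so each cell was also thinned at random to 2000 UMIs, which left out 8 older and 53 younger cells. At that equal depth 62 of 390 older muscle cells had a Cck UMI (15.9%, 12.4 to 19.9), against 3 of 558 younger ones (0.538%, 0.111 to 1.56). Thinned to 5000 UMIs, the E15.5 share was 27.7%, which shows how much of a share of this kind is set by depth.

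Few genes of the muscle class differed as much between the libraries. Of 9409 genes with at least 50 UMIs over both ages, 3.57% were at least 2-fold higher at E15.5, 16% were at least 2-fold lower, and the median log2 ratio was -0.34. Cck stood at 5.35 on the scale used for this ranking, with 0.5 UMIs added to each count, and only Nppc, Ecrg4, Clec3b and Dpt had a higher ratio. Nppc encodes C-type natriuretic peptide, and Clec3b and Dpt encode secreted proteins that connective tissue cells make. With all genes set relative to the median gene, the log2 ratio of Cck became 5.80.

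Every muscle state was low in the younger library. Cck had 1 UMI in 175 Pax7-positive, Myog-negative cells (1.37 CPM, 0.0346 to 7.61) and 4 UMIs in 246 Myog-positive, Pax7-negative cells (3.73 CPM, 1.02 to 9.54). The remaining muscle cells there held 1 UMI more, in a cell with neither gene. No cell at E12.5 held more than 1 Cck UMI. The log2 ratio between ages was 6.49 (4.003 to 11.80) in the Pax7-positive state and 4.64 (3.25 to 6.53) in the Myog-positive state, and these intervals overlap.

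Outside muscle, Cck at E15.5 lay far lower. The connective tissue-like class, the largest at 1706 cells, had 95 UMIs in 44 cells, or 5.28 CPM (4.27 to 6.45). The chondrocyte-like class had 12 UMIs, or 2.73 CPM (1.41 to 4.77). The tenocyte-like, immune-like and mural-like classes had 2, 1 and 2 UMIs, or 1.37, 1.28 and 1.14 CPM, and the intervals of these 3 overlap each other and that of chondrocyte-like cells. Cells left unnamed, 571 in number, stood at 5.40 CPM (3.09 to 8.77), which cannot be told from the connective tissue-like level.

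No Cck UMI was found in endothelial-like, mast-like, Schwann-like, melanocyte-like, epithelial-like or erythroid-like cells at E15.5. The endothelial-like class serves as the background for stray RNA: 0 of 150 cells had a UMI at a median depth of 11447.5 UMIs, and at 2000 UMIs 0 of 132 cells did, which allows a share of up to 2.27%. The muscle share of 15.9% at the same depth lies above that limit. Over all other named classes together the level was 3.52 CPM (2.90 to 4.24), and the log2 ratio of muscle to these classes was 4.89 (4.60 to 5.19). Of 13585 genes compared between these cells, 5.08% were at least 2-fold higher and 31.1% at least 2-fold lower in muscle. At E12.5 the other named classes held 3 Cck UMIs in 9583 cells, 2 in connective tissue-like and 1 in chondrocyte-like cells.

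**Figure D1:**
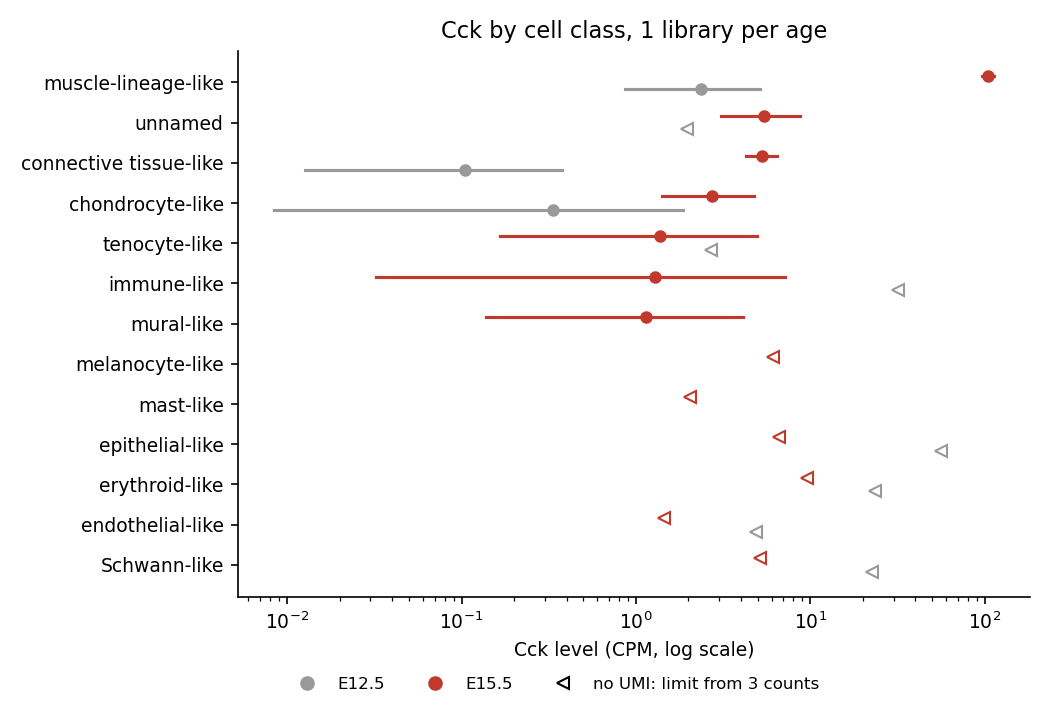
Cck level by cell class in CPM on a log axis, grey for E12.5 and red for E15.5. Points are levels, lines 95% counting intervals, and open triangles mark the limit that a count of 0 allows in a class without a Cck UMI. The muscle class at E15.5, at 104 CPM, stands apart from every other class of both libraries, of which the highest measured level is 5.40 CPM.

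The plot of Cck by cell class shows that the small classes bound Cck loosely. The limit for erythroid-like cells at E15.5 is 9.60 CPM and that for epithelial-like cells at E12.5 is 56.5 CPM, so a level like that of connective tissue could not have been seen there. The removed doublets, droplets scored as holding more than 1 cell, carried 47 Cck UMIs in 18 droplets at E15.5. With these droplets kept, the log2 ratio of muscle to the other named classes was 4.64, against 4.55 with no filter at all.

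Within muscle at E15.5, Cck was carried by both Pax7-positive and Myog-positive cells. The 195 Pax7-positive, Myog-negative cells had 369 Cck UMIs, or 123 CPM (111 to 136), in 105 cells (53.8%, 46.6 to 61.0). The 115 Myog-positive, Pax7-negative cells had 163 UMIs, or 92.6 CPM (78.9 to 108), in 42 cells (36.5%, 27.7 to 46.0). The 52 cells with UMIs of both genes stood at 61.6 CPM (46.8 to 79.6), and the 36 cells with neither at 117 CPM (86.3 to 155). Every one of these 4 levels lies far above that of any non-muscle class.

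The order of the Pax7-positive and Myog-positive states depended on how they were drawn. The log2 ratio of the Myog-positive to the Pax7-positive level was -0.41 (-0.68 to -0.14). Of 15 alternatives 10 left it between -0.48 and -0.28, 3 moved it further below 0 and 2 turned it to just above 0. It was -0.87 (-1.24 to -0.51) in cells of female type, which carried UMIs of Xist and none of the Y-linked genes, and 0.18 (-0.45 to 0.81) in cells of male type. With states set after thinning each cell to 2000 UMIs it was 0.032 (-0.97 to 1.07). After thinning, the share of cells with a Cck UMI was 17.4% (12.4 to 23.5) in the Pax7-positive and 10.9% (5.77 to 18.3) in the Myog-positive state, with intervals that overlap. The intervals of both values above 0 include -0.41, so neither shows the opposite order. The Cck ratio lay within 2-fold, unlike that of most members of the lists of the states. Of 12 genes of differentiating muscle, among them Myog, 10 were at least 2-fold higher in Myog-positive cells, against 7.14% of 7521 genes tested. Of 9 measured progenitor genes, among them Pax7, 6 were at least 2-fold lower, against 12.8%. The ratios of Myog and Pax7 were set by the split itself, so only the other members bear on this comparison.

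**Figure D2:**
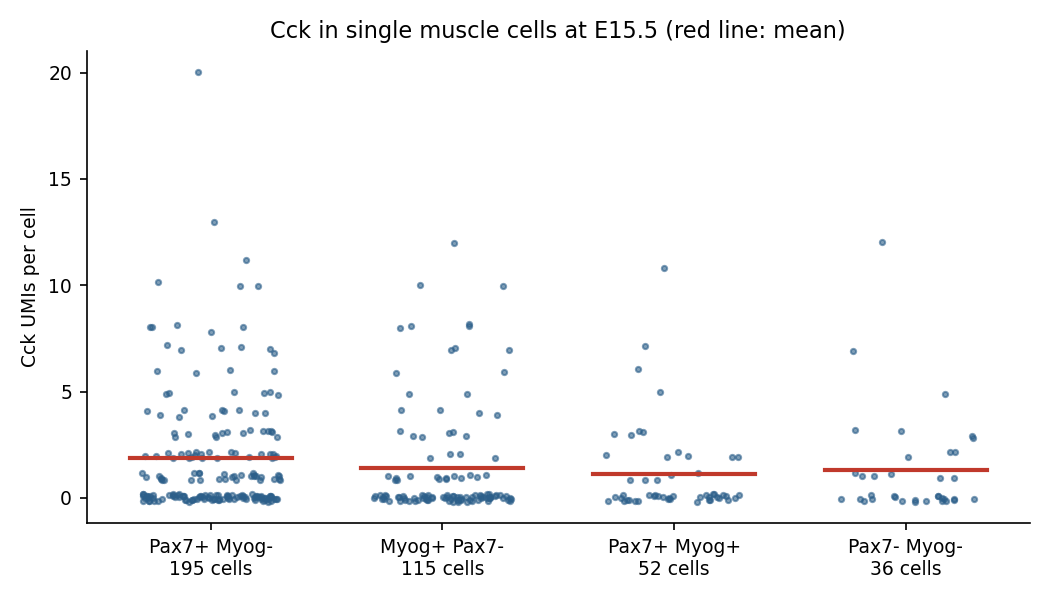
Cck UMIs in each muscle cell at E15.5 by detection of Pax7 and Myog, with points spread slightly around whole numbers and the mean as a red line. All 4 states hold cells with no Cck UMI beside cells with 5 or more, and the highest cell, with 20 UMIs, is Pax7-positive.

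The counts per cell were uneven, as the plot of single cells shows. Of the 398 muscle cells 216 had no Cck UMI, 56 had 1, 78 had 2 to 4 and 48 had 5 or more, and these 48 cells held 58.0% of all Cck UMIs. The highest cell held 20 UMIs, and 11 cells held 10 or more. Cells with 5 or more UMIs made up 27 of the Pax7-positive and 14 of the Myog-positive cells. The variance of the count over its mean was 4.38 in the Pax7-positive and 4.86 in the Myog-positive state, so the unevenness was seen within each state. The intervals treat UMIs as independent, so for counts this uneven they are likely too narrow. Small ratios between states are therefore less certain than their intervals show.

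Genes of similar level were seen in more of the cells. Among 574 genes with a mean of 1.28 to 1.997 UMIs per muscle cell, against 1.603 for Cck, the median gene was missing from 31.2% of cells and Cck from 54.3%. Only 21 of them were missing from more cells than Cck. They included genes of differentiating muscle, such as Cav3 (missing from 77.9%), the fusion gene Mymk (76.1%), Klhl41 (75.1%) and the foetal myosin heavy chain gene Myh8 (73.6%), and genes of dividing cells, such as Cenpe (59.0%) and Aurkb (58.3%).

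Splitting the Pax7-positive cells by Myod1, the gene of commitment, gave a lower level with Myod1. The 133 Pax7-positive cells without Myod1 or Myog stood at 135 CPM (118 to 152) and the 62 with Myod1 at 103 CPM (85.5 to 124), a log2 ratio of -0.38 (-0.71 to -0.06). The group without Myod1 included the highest cell, with 20 Cck UMIs. Before thinning, the share of cells with a Cck UMI was alike, at 54.1% (45.3 to 62.8) without and 53.2% (40.1 to 66.0) with Myod1. Thinned to 2000 UMIs, the share was 21.8% (15.1 to 29.8) without and 8.06% (2.67 to 17.8) with Myod1, and these intervals overlap. Over all muscle cells the level was 89.6 CPM (79.8 to 100) with a Myod1 UMI and 123 CPM (110 to 137) without. For Myf5, the other early regulator, the levels were 111 CPM (98.1 to 126) with and 100 CPM (90.2 to 111) without, which do not differ beyond counting error. These splits rest on detection, and the Myod1-positive cells were also deeper, with a median of 15689.5 UMIs against 12580.5.

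The Myog-positive cells were not uniform in Cck. Clustering without the myogenic genes placed the muscle cells in 4 clusters. One led by Msc and Pax7 (157 cells) had Cck at 116 CPM (102 to 131), and one led by Pax7 that also listed the cell cycle gene Ccne1 (153 cells) at 87.9 CPM (77.2 to 99.7). One led by the fusion gene Mymx and by Myog (67 cells) had the highest level, at 161 CPM (135 to 191). One led by the myosin light chain gene Mylpf and other contractile genes (21 cells) had the lowest, at 46.4 CPM (28.7 to 70.9). The share of cells with a Cck UMI gave another order, at 50.3%, 42.5%, 41.8% and 47.6% in the sequence above. After thinning to equal depth these shares were 23.1%, 9.15%, 17.5% and 5.56%. The Mymx-led cluster thus stood highest by CPM only. The intervals of its shares overlap those of the cluster led by Msc and Pax7.

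In the cluster led by Mymx and Myog, the 61 Myog-positive, Pax7-negative cells had 126 Cck UMIs, or 165 CPM (138 to 197). The 36 cells of the same state that lay in the Pax7-led clusters had 16 UMIs, or 27.0 CPM (15.4 to 43.9), and 10 of those 16 were in 1 cell. The log2 ratio of these levels was 2.61 (1.86 to 3.46). Cells of both sexes showed it, at 2.13 (1.250 to 3.124) in female and 3.96 (1.39 to 9.30) in male cells, although the male value rests on 1 UMI in 5 cells on the lower side. Of the 126 UMIs of the higher group 59 were in 38 female cells and 36 in 15 male cells. The rest were in cells assigned to neither sex, and these add to the pooled level of 165 CPM but not to the values by sex. The difference is seen beside a lower depth in the higher group, with a median of 12033 against 16441.5 UMIs.

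Within the Pax7-led clusters the Pax7-positive, Myog-negative cells had Cck at 130 CPM (111 to 152) and 117 CPM (102 to 135). The Myog-positive, Pax7-negative cells of the same clusters stood at 15.4 CPM (1.86 to 55.6, 11 cells) and 30.3 CPM (16.5 to 50.8, 25 cells). The log2 ratios of Myog-positive to Pax7-positive cells inside the clusters were thus -3.08 (-6.14 to -1.20) and -1.95 (-2.85 to -1.17). Set in the order of the states, the level was high in Pax7-positive cells, low in the Myog-positive cells that clustered with them, high in the Mymx- and Myog-led cluster and lower again in the cluster led by contractile genes. These are snapshots of different cells, and the order in which any cell passes through them was not measured.

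**Figure D3:**
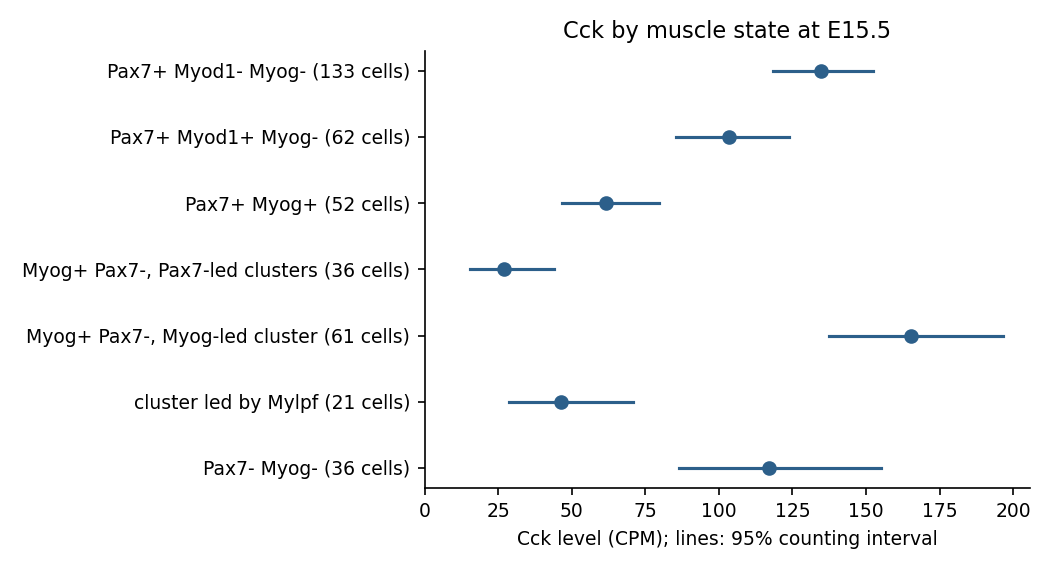
Cck level in CPM for muscle states at E15.5, with 95% counting intervals as lines and numbers of cells in the labels. The Myog-positive cells of the Pax7-led clusters, at 27.0 CPM, lie below the Pax7-positive cells. Those of the Myog-led cluster have the highest point, at 165 CPM (138 to 197). Their interval overlaps that of Pax7-positive cells without Myod1 or Myog (118 to 152).

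The plot of Cck by muscle state sets these groups side by side. The Myog-led group did not stand above Pax7-positive, Myog-negative cells in both sexes. In female cells the levels were 123 CPM (93.7 to 159) and 126 CPM (111 to 141). In male cells they were 171 CPM (120 to 237) and 98.3 CPM (71.7 to 132). Division marked a similar split among the Myog-positive cells. Those with a UMI of the division genes Mki67 or Top2a stood at 50.1 CPM (37.2 to 66.0, 61 cells) and those without at 148 CPM (122 to 178, 54 cells), a log2 ratio of -1.57 (-2.08 to -1.07). In female cells the levels were 26.6 and 141 CPM, but in male cells they were 126 CPM (11 cells) and 101 CPM (10 cells) with overlapping intervals, so the split was not seen in both sexes. In Pax7-positive cells, 169 of which had a division gene, the levels were 125 CPM (112 to 139) with and 96.5 CPM (63.6 to 140) without, a log2 ratio of 0.38 (-0.19 to 1.00).

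Over all muscle cells, those of male and female type carried Cck at like levels. The 65 male muscle cells stood at 117 CPM (97.2 to 139) and the 287 female cells at 95.4 CPM (86.6 to 105), a log2 ratio of 0.29 (-0.01 to 0.58). The pattern by state differed. The log2 ratio of Myog-positive to Pax7-positive cells was 0.18 (-0.45 to 0.81) in male and -0.87 (-1.24 to -0.51) in female cells. These 2 intervals do not overlap. The sex of a cell stands for the embryo it came from, and embryos of one sex may share a stage or a handling step, so sex and embryo cannot be told apart.

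Genes seen with Cck were first sought within each state, comparing Cck-positive with Cck-negative cells by summed UMIs. The Cck-positive cells were deeper in both states, with median depths of 15526 against 12872 UMIs in Myog-positive and 15685 against 12863 in Pax7-positive cells. Among the Myog-positive cells 4034 genes had at least 50 UMIs, of which 5.16% were at least 2-fold higher and 5.21% at least 2-fold lower in the 42 Cck-positive cells than in the 73 without. The median log2 ratio of all these genes was -0.06.

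Contractile genes were higher in the Cck-positive Myog-positive cells. Of 16 measured genes of the contractile list 13 were at least 2-fold higher and 0 lower, with a median log2 ratio of 1.51. Mylpf, a fast myosin light chain gene, had 5798 CPM in Cck-positive and 2041 CPM in Cck-negative cells, the embryonic myosin heavy chain gene Myh3 had 1413 and 217 CPM, and Ttn, which encodes the spring protein titin, had 4754 and 1320 CPM. Of the 12 differentiating genes 4 were at least 2-fold higher: Mymk (log2 ratio 1.21), Mef2c (2.04), the cell cycle inhibitor gene Cdkn1a (1.64) and the foetal acetylcholine receptor gene Chrng (1.76). Myog itself had a log2 ratio of 0.46 and Myod1 one of -0.61.

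Proliferation genes were lower in the same cells. Of 12 measured members 10 were at least 2-fold lower and 0 higher, with a median of -1.65. Mki67 had 94.5 CPM in Cck-positive and 328 CPM in Cck-negative cells, and the replication clamp gene Pcna 30.3 and 128 CPM. The genes with the lowest ratios outside the lists were Cenpm, Ncapd3, Pbk, Dtl and Ccne2, with log2 ratios between -3.21 and -2.69, all known from dividing cells. Those with the highest were Ppm1l, Ldb3, Srpk3, Npnt and Actn2, between 3.01 and 5.01, of which Ldb3 and Actn2 encode proteins of the Z-disc and Srpk3 a muscle protein kinase. Each of these 5 genes drew much on 1 Cck-positive cell. The highest cell held 25 of the 57 UMIs of Ppm1l and 19 of the 52 of Ldb3. It held 20 of 72 for Srpk3, 26 of 84 for Npnt and 107 of 306 for Actn2.

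The deepest Cck-positive cell, with 94309 UMIs, supplied 11.4% of all UMIs on its side. Without it, still 13 of 16 contractile genes were at least 2-fold higher (median 1.43, 3.94% of all genes) and 10 of 12 proliferation genes at least 2-fold lower (median -1.47, 4.61% of all genes), while the differentiating genes at least 2-fold higher went from 4 to 3 of 12. Thinned to 5000 UMIs, all 16 contractile genes were seen in a larger share of the Cck-positive cells and all 12 proliferation genes in a smaller share, while of all 4034 genes 1999 had the larger share and 2007 the smaller.

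The contrast was smaller inside single clusters. Inside the Myog-led cluster alone, with 26 Cck-positive and 35 Cck-negative cells, 4 of 15 measured contractile genes were at least 2-fold higher, with a median log2 ratio of 0.58, against 1.26% of 1986 genes (0.755% were lower), and of the 12 differentiating genes 1 was. No proliferation gene had enough UMIs there to be compared. Inside the Pax7-led clusters only 6 Myog-positive cells had Cck, against 30 without. There 2 of 6 contractile genes were at least 2-fold higher, against 1.2% of 1670 genes, and 2 of 12 proliferation genes at least 2-fold lower, against 2.57%. In the cluster led by Mylpf and other contractile genes, 10 of 18 Myog-positive, Pax7-negative cells had Cck. They included cells of 94309, 77143 and 56686 UMIs, against a median of 15526 UMIs over all Cck-positive Myog-positive cells. Such deep contractile cells weigh heavily in summed counts, and the contrast without this cluster was not made.

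In the Pax7-positive cells few genes passed 2-fold. Between the 105 Cck-positive and the 90 Cck-negative cells, 0.561% of 6064 genes were at least 2-fold higher and 0.643% at least 2-fold lower. Of 9 measured progenitor genes and 13 proliferation genes 0 passed 2-fold in either direction. Pax7 had 198 and 191 CPM, Msc 341 and 348 CPM, Mki67 417 and 461 CPM and the Notch target Heyl 42.1 and 44.0 CPM in cells with and without Cck. The only member of the fixed lists past 2-fold was Myh8, at 50.9 and 16.97 CPM.

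Among the 5 highest genes in Pax7-positive cells 2 were spread over many cells, Myh8, described above, and Cbln2, which encodes a secreted synapse organiser of neurons. Myh8 had 87 UMIs in 27 Cck-positive cells, at most 16 in 1 cell, and 22 UMIs in 12 others. At 5000 UMIs per cell the shares of cells with Myh8 were close, 8.74% and 6.67%. Cbln2 had 60 UMIs in 28 of the 105 Cck-positive cells and 4 UMIs in 2 of the 90 others, a log2 ratio of 3.51 (2.08 to 5.43). At 5000 UMIs per cell the shares of cells with Cbln2 were 8.74% and 2.22%. Ptcra, Gm19409 and Endov had 57 of 69, 69 of 79 and 47 of 60 UMIs in a single cell, so their ratios describe 1 cell each. Genes with the lowest ratios were Zfp60, P2rx4, Golga3, Mpped2 and Olfr1369-ps1. Mpped2 had 17 UMIs in 10 Cck-positive and 58 UMIs in 31 Cck-negative cells, at most 5 of them in 1 cell. Zfp60 had 21 UMIs in 20 Cck-positive and 106 UMIs in 27 Cck-negative cells, with 37 of the latter in 1 cell. Of the UMIs in Cck-negative cells, 1 cell held 46 of 50 for P2rx4, 67 of 138 for Golga3 and 58 of 85 for Olfr1369-ps1.

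Immediate early genes, which respond to calcium and cyclic AMP signals and to tissue handling, gave counts that differed with the cells compared. In Pax7-positive cells 0 of 9 measured members passed 2-fold (median log2 ratio -0.03), against 0.561% of all genes higher and 0.643% lower, with Fos at 449 and 453 CPM in cells with and without Cck. In Myog-positive cells 0 of 7 did, with a median of 0.31, against 5.16% of all genes higher and 5.21% lower. Inside the Pax7-led clusters, where 6 Myog-positive cells had Cck and 30 had none, 5 of 5 measured members were at least 2-fold lower (median -1.86), against 2.57% of all genes. Inside the Myog-led cluster 0 of 5 passed 2-fold (median 0.10).

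Across all muscle cells no gene followed Cck closely. Over 383 muscle cells thinned to 5000 UMIs, the correlations of Cck with 5089 genes lay between -0.19 (Smc6) and 0.24 (Ap3b1), and the middle of them between -0.04 and 0.04 (quartiles). The 10 genes with the highest values, from Ap3b1, Rars2 and Iars2 to Eif4g3, shared 6 members with the list by rank correlation, but 2 with another random thinning to the same depth, 0 with thinning to 2000 UMIs, 0 without thinning and 0 in Myog-positive cells alone. The list therefore changes with the draw and names no companions of Cck. The correlation was -0.06 with Pax7, -0.02 with Myog and -0.04 with Myod1. All points share 1 library, and correlations of this size in sparse counts are not read as findings.

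Markers of other cell types were also counted in the muscle cells. The 10 connective tissue markers, all detected, summed to 593 CPM in Cck-positive and 478 CPM in Cck-negative muscle cells. The 7 neuron markers, of interest since neurons make cholecystokinin, summed to 3.86 and 4.32 CPM, with Elavl3 and Stmn2 at 0 in both. The 6 mural markers summed to 95.2 and 68.4 CPM (296 and 206 UMIs), with Higd1b at 0 in both. They include Notch3, which is also on the progenitor list. Notch3 had 148 UMIs in Cck-positive and 106 UMIs in Cck-negative Pax7-positive, Myog-negative cells, so this sum is not of mural RNA alone. The part of such RNA in the results for Cck was not tested.

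The Cck seen outside muscle was not spread evenly. A connective tissue-like cluster led by Fst, the gene of the activin and myostatin antagonist follistatin, held 75 of the 95 UMIs of its class. They lay in 31 of its 653 cells, up to 8 per cell, at a level of 12.1 CPM (9.55 to 15.2). The other connective tissue-like clusters stood at 1.69 CPM, a log2 ratio of 2.84 (2.12 to 3.63), and muscle stood above the Fst-led cluster by a log2 ratio of 3.10 (2.76 to 3.47). The Fst-led cluster was the non-muscle cluster with the highest Cck level under all 6 other settings tried, at 7.86 to 16.3 CPM, although with all barcodes it was led by Tshz2 and listed Fst among its leading genes.

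Whether muscle transcripts came with Cck in this cluster was counted directly. Set against 7 muscle genes (Pax7, Myf5, Myod1, Myog, Msc, Actc1 and Des), muscle cells had 3.14 Cck UMIs per 100 muscle-gene UMIs, the other connective tissue-like clusters 4.81 and the Fst-led cluster 31.4. The muscle value pools unlike clusters. The one led by Msc and Pax7 had 243 Cck UMIs beside 2617 muscle-gene UMIs, and the Mylpf-led one 21 beside 6192. The Fst-led cluster had 75 beside 239. Of its 31 Cck-positive cells 10 held a UMI of any of the 7 genes (32.3%, 16.7 to 51.4), against 27.0% of its Cck-negative cells. In its 475 cells without a UMI of any of the 7 genes the level was 9.48 CPM (6.83 to 12.8, 42 UMIs in 21 cells). Cells of female type there had 14.5 CPM and cells of male type 6.25 CPM, the latter from 7 UMIs.

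**Figure D4:**
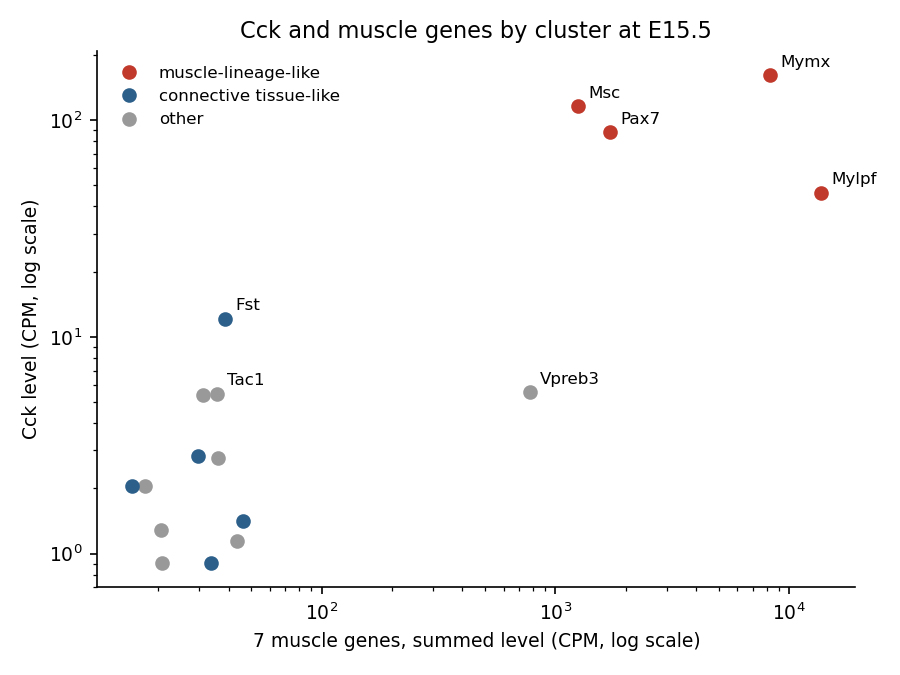
Cck level against the summed level of 7 muscle genes in each cluster with a Cck UMI at E15.5, both in CPM on log axes, with a few clusters labelled by their leading gene. Among the clusters low in muscle genes the Fst-led one stands highest, at 12.1 CPM, while the 4 muscle clusters, in red, lie between 46.4 and 161 CPM.

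The plot of Cck against muscle genes shows the Fst-led cluster above its neighbours. Its Cck-positive cells looked like connective tissue: Pdgfra, a fibroblast receptor gene, was found in 80.6% of them and in 67.0% of the cluster's other cells, Prrx1 in 61.3% and 72.0%, and Fst in 71.0% and 62.5%. The fibroblast gene Clec3b was found in 38.7% and 52.4%. Their median depth was 8113 UMIs, against 8904.5 in the others. Large ratios such as that of Gm10827 came from single cells, which held all 38 of its UMIs.

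The partners that cholecystokinin needs were then followed from ligand to receptor. No receptor was present at a level that could be followed. Cckar, the receptor of gut and pancreas, had 2 UMIs in muscle and 4 in all kept cells at E15.5, and Cckbr, the receptor of brain and stomach, had 0 in any kept cell. Gast, the gastrin gene, had 0 UMIs in muscle and 6 in all kept cells. In muscle at E15.5 a count of 0 allows a level of up to 0.490 CPM. At E12.5 the 3 genes had 1, 2 and 3 UMIs in all kept cells.

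Among the convertases, Pcsk1 was at 0 in muscle at E15.5 and Pcsk2 had 5 UMIs, or 0.817 CPM (0.265 to 1.91), against 23.3 CPM in connective tissue-like cells. Pcsk5 had 3.27 CPM (1.997 to 5.05) against 59.0, and Furin, the convertase of the general secretory route, 11.9 CPM against 19.3. Cathepsin L, an alternative protease for this precursor in neuroendocrine cells and encoded by Ctsl, had 85.3 CPM (78.1 to 93.0) against 235. These pairs compare 1 gene between cell classes, since levels of different genes in 3′ counts are not set against each other.

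Later steps were likewise lower in muscle than in connective tissue-like cells. Cpe stood at 4.09 CPM (2.64 to 6.03) against 69.7, Pam at 11.6 CPM (9.06 to 14.6) against 44.0, and the sulphotransferase genes Tpst1 and Tpst2 at 24.0 and 8.50 CPM against 65.0 and 24.7. Of the 16 genes of processing and secretory granules 11 had an interval of the log2 ratio of muscle to connective tissue-like cells wholly below 0, against 32.1% of 20488 genes, and 1 had it above 0, against 17.2%. None of the 16 was highest in muscle among the named classes, where 9.05% of these genes were. The exception was Scg5, the chaperone gene of convertase 2, with 12 UMIs or 1.96 CPM (1.01 to 3.43) against 0.167. The granule genes Scg2, Scg3, Pcsk1n and Vgf were at 0 in muscle, and Chga and Chgb had 2 and 1 UMIs.

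**Figure D5:**
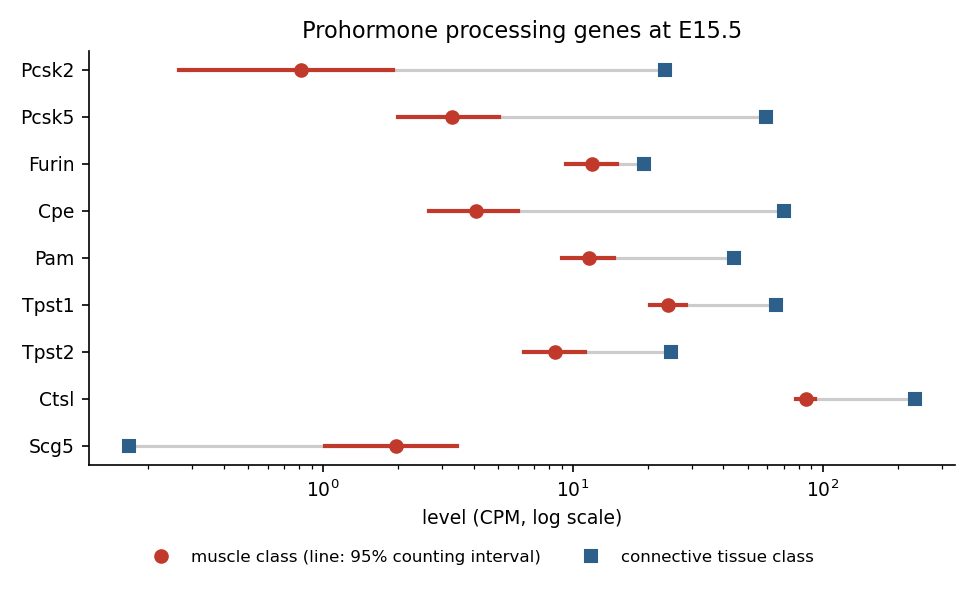
Levels of 9 genes for the processing of prohormones at E15.5 in CPM on a log axis, red circles with 95% counting intervals for the muscle class and blue squares for connective tissue-like cells. Scg5 alone lies to the right in muscle, at 1.96 against 0.167 CPM.

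The plot of processing genes gives these pairs gene by gene. In the 182 Cck-positive muscle cells the processing genes were seen as follows. Ctsl was found in 117 cells (64.3%), Tpst1 or Tpst2 in 72 (39.6%), Furin in 30 (16.5%), Pam in 23 (12.6%), Cpe in 11 (6.04%) and Pcsk1 or Pcsk2 in 4 (2.20%, 0.602 to 5.53). Cpe, Pam and a sulphotransferase gene together were seen in 1 cell. At this depth a gene missed in a cell may still be expressed there, so these shares bound what was detected and not what was present. Of the 31 Cck-positive cells in the Fst-led cluster 13 had Cpe (41.9%, 24.5 to 60.9), at a lower median depth than in muscle.

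Few other peptide hormone genes were seen in the muscle cells. Of 22 listed, 13 had no UMI in muscle at E15.5, 6 had 1 to 9 and 3 had 10 or more. These 3 were Nppc with 192 UMIs (31.4 CPM, against 85.0 in connective tissue-like cells), the enkephalin gene Penk with 35 (5.72 against 97.3) and Pomc, the precursor gene of corticotropin, with 23 (3.76 against 6.00). None of the 22 was highest in muscle among the named classes, against 9.05% of all genes, and 12 had the log2 ratio interval of muscle to connective tissue-like cells wholly below 0, against 32.1%. A UMI in either class was found for 19 of the 22.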

How the data were processed

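Single-cell libraries of limb muscle tissue at E12.5 and E15.5 were analysed. The deposited matrices hold whole-number UMI counts per gene and barcode, made by the authors with Cell Ranger 4.0.0 on mm10, per the submitters' processing notes, which also list Seurat 4.3.0. Barcodes with at least 500 genes and under 10% mitochondrial UMIs were kept. Doublet scores followed Scrublet's method, and the highest were removed at 0.8% per 1000 barcodes (1270 at E12.5, 189 at E15.5). Each library was clustered on 2000 variable genes without Cck and 37 other genes, with 30 principal components, 15 neighbours and the Leiden method at resolution 1.0. Clusters were named from marker lists of 14 classes given 3 or more markers that exceeded the remaining cells 2-fold and reached 10% detection; 14.6% of older and 7.34% of younger cells stayed unnamed. UMIs were summed per class, with exact Poisson, Clopper-Pearson and conditional intervals at 95%, and a count of 0 allows 3 counts. Genes named beside Cck are the 10 highest and 5 lowest correlations, the 5 highest and 5 lowest ratios between Cck-positive and Cck-negative Myog-positive cells among genes with at least 50 UMIs, and all list members; the Pax7-positive cells got the same treatment. Cck and the lists were chosen with earlier results of these data known. 1 marker list counted in the muscle cells is not reported here. No test was made, since each age has 1 library. The counting intervals were tested on simulated Poisson counts, which lack the unevenness seen for Cck, so that test does not show that they hold for Cck. Python 3.11.15 ran scipy 1.17.1, numpy 2.4.6, leidenalg 0.10.2, igraph 0.11.9, matplotlib 3.10.9 and scikit-learn 1.9.0.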

Additional observations from a re-analysis of the deposited data

How the results depend on the processing

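The log2 ratio of Cck between ages in muscle stayed within 4.62 to 6.85 under 11 alternatives of filter, doublet removal, clustering, muscle gate, sex and scaling. The ratio of Myog-positive to Pax7-positive cells ranged from -3.08 to 0.18 over 15 alternatives, 10 of which left it between -0.48 and -0.28. It turned to 0.18 in male cells and to 0.032 with states set after thinning, was -0.87 in female cells, and was -3.08 and -1.95 within the Pax7-led clusters, an alternative added after seeing the data. The cause was not tested. The ratio of muscle to other named classes moved from 4.89 to 4.55 with all barcodes, 5.21 in male cells, 4.59 in female cells and 4.49 with equal weight per cell. The thinned share moved from 15.9% to 23.1% in male cells and to 27.7% at 5000 UMIs. The contrasts of Cck-positive cells without the deepest cell and within clusters, the level in cells without muscle genes, another thinning and no thinning were likewise added after seeing the data. Depth limits the small classes, where 0 counts allow up to 9.60 CPM at E15.5. No paired analysis was possible because each age has 1 library.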
